A study of Homo sapiens with 6 samples.

Results

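The human mitochondrial genome encodes 37 genes, and all 37 were rows of the deposited gene table, 37 of 60831 rows in all, chosen as the rows whose gene name starts with MT-. They are 13 mRNAs, 2 rRNAs and 22 tRNAs. RNA was sequenced in bulk from PATU8988, an established human pancreatic cancer cell line, in 3 libraries with a control hairpin, labelled shNC, and 3 with a hairpin that targets CLIC1, the gene of a chloride channel protein found in the cytosol and in membranes. Per the labels' protocols, the CLIC1 hairpin was carried by a lentivirus with an hU6 promoter, EGFP and a puromycin resistance gene, and infected cells were kept under puromycin for 2 weeks to give stable lines. The sources used here do not state the number of hairpins or whether the 3 libraries of a group came from separate infections. The p-values therefore cover the spread among these 6 libraries alone, and that spread may be technical. Levels are TPM, a transcript abundance that divides reads by gene length and brings every library to the same total, so that sequencing depth is unknown. CLIC1 reached 313, 311 and 297 TPM in control, against 219, 210 and 204 TPM in knockdown, and fell by 0.54 on the log2 scale (SE 0.0407, limma, adjusted p = 0.00345). The knockdown mean was still 68.8% of control, so the knockdown was partial. The knockdown columns of the table are marked S, a letter the labels do not define, and were assigned because the other 3 are marked NC.

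Mitochondrial DNA is a small circle that encodes only subunits of the respiratory chain and the RNAs needed to translate them. Complex I, III, IV and V, which pump protons and make ATP, each combine mitochondrially encoded subunits with many nuclear ones. Both strands are transcribed by the polymerase POLRMT into long precursors, from which most mRNAs and both rRNAs are released by cutting out the tRNAs that lie between them. Most mRNAs then receive a poly(A) tail, which in several of them also completes the stop codon.

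In GENCODE release 29 on GRCh38 the 37 genes span positions 577 to 16023 of the mitochondrial chromosome. The heavy-strand transcript carries 12 mRNAs, both rRNAs and 14 tRNAs, annotated on the plus strand. MT-ND6 and 8 tRNAs are annotated on the minus strand. The lengths in the deposited table equalled the annotated ones for all 37 genes. Of the 13 mRNAs, 6 have a length that is no multiple of 3 bases, so their stop codon is incomplete in the DNA. MT-CYB, the gene with the largest log2 fold change of the 15 that could be tested, is one of them. The tRNA genes that bound it, MT-TE on the opposite strand and MT-TT on the same strand, are shown because they are its immediate neighbours and stand for the tRNA class described further on. They run at chrM:14674-14742 on the minus strand for MT-TE and chrM:15888-15953 on the plus strand for MT-TT. All sequences here are the reference of GENCODE and not read from these cells.
MT-TE: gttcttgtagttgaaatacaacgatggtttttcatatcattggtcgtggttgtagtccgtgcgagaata
MT-TT: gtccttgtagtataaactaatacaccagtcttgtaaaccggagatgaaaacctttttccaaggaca

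By transcript class, nearly the whole mitochondrial level lay in the mRNAs. The 37 genes took 17.2%, 17.6% and 17.3% of the TPM total in the control libraries and 17.1%, 17.7% and 18.0% in knockdown. The groups overlapped, and the means were 17.4% ± 0.197 (SD, n = 3) and 17.6% ± 0.445, a difference of 0.223 percentage points (exact permutation test, two-sided, p = 0.6, where 3 against 3 libraries allow no p below 0.1). The 13 mRNAs took 17.1% ± 0.189 and 17.3% ± 0.448 (exact permutation p = 0.6). The 2 rRNAs took 0.248% ± 0.00937 and 0.257% ± 0.0152 (exact permutation p = 0.6), and that difference of 0.0085 percentage points was 0.00020 without knockdown replicate 2. The summed mRNA level was 69.0 times the summed rRNA level in control and 67.6 times in knockdown, as geometric means. The sources used here do not state whether poly(A) RNA was selected or rRNA removed, and this ratio depends on that step. In bulk RNA, the number of mitochondria or genomes per cell and the amount of RNA per genome cannot be told apart.

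A share of TPM counts transcripts and not reads. Weighted by the deposited gene lengths, which approximates a share of reads, the 37 genes took 6.56% ± 0.109 in control and 6.57% ± 0.288 in knockdown (exact permutation p = 0.9), and the rRNAs 0.174% ± 0.00717 and 0.183% ± 0.0101. This weighting was chosen after the data were seen.

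Split by the complex they serve, the 7 complex I mRNAs held 6.43% ± 0.0851 of all TPM in control and 6.34% ± 0.164 in knockdown, and the 3 mRNAs of complex IV, the cytochrome c oxidase, held 5.23% ± 0.0384 and 5.12% ± 0.118. The groups overlapped in both (exact permutation p = 0.4 and p = 0.3). The 2 mRNAs of complex V, the ATP synthase, lay at 5.34%, 5.50% and 5.30% in control and at 5.41%, 5.76% and 6.09% in knockdown. Knockdown replicate 3 was the highest of these and the ranges overlapped (exact permutation p = 0.2). Complex III, which has MT-CYB alone, lay at 0.0803%, 0.0851% and 0.0893% in control and at 0.0984%, 0.115% and 0.119% in knockdown, with no overlap (exact permutation p = 0.1, the smallest possible).

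**Figure D1:**
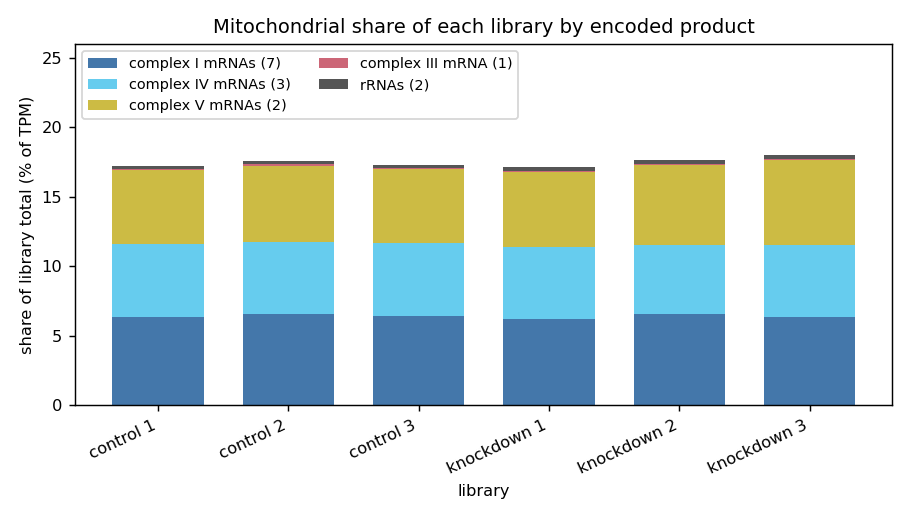
Share of each library's TPM total (y axis, percent) held by the mitochondrially encoded genes in the 3 control and 3 knockdown libraries (x axis), stacked by the complex whose subunits the mRNAs encode, with the rRNAs on top. Every library reaches between 17.1% and 18.0%, and the MT-CYB layer of complex III is too thin to stand out.

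By TPM in the deposited gene table, all mRNAs except MT-CYB ranked among the highest genes. These are ranks of TPM and not of RNA amounts in the cells. MT-ATP8 ranked first of all genes in every library, 11 of the 13 mRNAs were among the top 20 in every library, and MT-ND6 ranked between 19 and 23. MT-CYB ranked between 130 and 172. In control, per length, MT-ATP8 was at 41836 ± 998 TPM (SD, n = 3), and the core catalytic oxidase subunits MT-CO1 and MT-CO2 were at 18983 ± 128 and 18355 ± 236 TPM. MT-CO3, the other oxidase subunit, was at 14940 ± 164 TPM, and MT-ATP6, the proton-channel subunit a of the ATP synthase, at 11950 ± 159 TPM. Of the complex I subunits of the membrane arm, MT-ND4L was at 17706 ± 557, MT-ND3 at 11225 ± 121, MT-ND4 at 9545 ± 128, MT-ND2 at 8330 ± 82.5, MT-ND5 at 7532 ± 106, MT-ND1 at 5419 ± 83.7 and MT-ND6 at 4507 ± 80.05 TPM. In this order of levels, MT-CO2 and MT-ND4L had overlapping control ranges, and no other neighbours from MT-ATP8 down to MT-ND6 did.

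MT-CYB, the cytochrome b of complex III, stood far below the other mRNAs. Its control level was 849 ± 45.0 TPM, and MT-ND6, the next lowest mRNA, was 5.31 times as high in control and 4.43 times as high in knockdown. MT-CYB was close to MT-RNR1, the small ribosomal RNA at 835 ± 59.4 TPM, and below MT-RNR2, the large ribosomal RNA at 1647 ± 37.7 TPM. Its GC content, 46.3%, lay within the 39.6% to 47.7% of the 13 mRNAs, and its length of 1141 bases lay between those of MT-ND2 and MT-ND4. The parts of annotation, read mapping and library preparation in this low level were not tested.

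The shortest mRNAs, MT-ATP8 with 207 bases, MT-ND4L with 297 and MT-ND3 with 346, are not much longer than a usual sequencing fragment. Their level per length then rests on how the effective length was set, which the sources used here do not state. Across the 13 mRNAs the rank correlation of length with level was -0.36, and over the 10 with at least 400 bases it was 0.030. These genes come from the same libraries and share precursors, so the values are a description only.

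**Figure D2:**
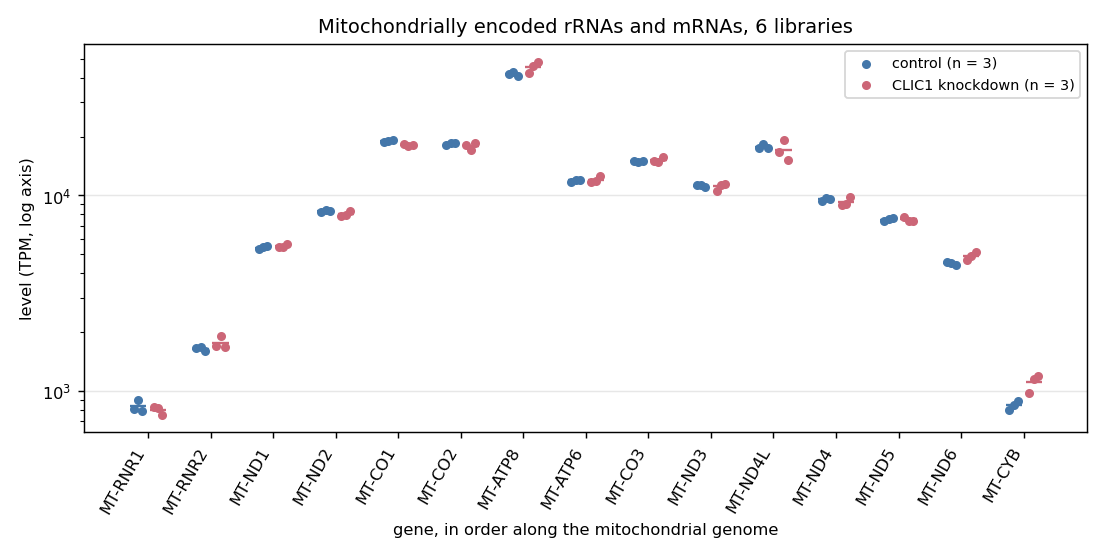
Level in TPM (y axis, log scale) of the 2 rRNAs and 13 mRNAs in order along the mitochondrial genome (x axis), with 1 point per library and a line at each group mean. MT-ATP8 is the highest in all 6 libraries, and MT-CYB and both rRNAs lie below the other 12 mRNAs.

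Knockdown was compared with control by limma on log2(TPM + 1) over all genes with a mean of at least 1 TPM. The 2 rRNAs and 13 mRNAs passed that filter and the 22 tRNAs did not. Of the 15 genes 0 passed at an adjusted p under 0.05, where 1.74% of the 14135 tested genes did, 0.962% higher and 0.778% lower. Among the 234 genes with a mean of at least 500 TPM, the range in which the 15 lie, 9.83% passed. At an unadjusted p under 0.05 there were 4 of 15, against 15.6% of all tested genes. That count ran from 1 to 6 over the alternatives that kept these genes, and the share among the 234 abundant genes was not taken. The median log2 fold change of the 15 was 0.0013, with 8 positive and 7 negative values, and that of all tested genes was -0.0047. The median absolute log2 fold change was 0.05 for the 15, 0.11 for all tested genes and 0.06 for the 234 abundant genes. For 14 of the 15 the absolute log2 fold change was under 0.13.

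MT-CYB had the largest log2 fold change of the 15. It reached 803, 851 and 893 TPM in control, against 984, 1151 and 1192 TPM in knockdown. The groups did not overlap, and knockdown replicate 1 lay nearest to control. The means were 849 ± 45.0 and 1109 ± 110 TPM, 131% of control, and the log2 fold change was 0.38 (SE 0.0746, adjusted p = 0.0603). It passed once knockdown replicate 1 was left out (0.46, adjusted p = 0.0224) and with the filter raised to 5 TPM (0.38, adjusted p = 0.0357). Over all 15 alternatives the adjusted p ran from 0.0224 to 0.2001, and 3 of them passed.

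MT-ND6, the complex I subunit encoded on the other strand, reached 4565, 4539 and 4415 TPM in control, against 4671, 4905 and 5163 TPM in knockdown. Every knockdown library lay above every control library. The log2 fold change was 0.12 (SE 0.0371, adjusted p = 0.168). The sources used here do not state whether the kit kept strand, and without strand reads of MT-ND6 cannot be told from reads of the heavy-strand precursor that runs through the same bases.

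MT-CO1, the catalytic oxidase subunit, reached 18846, 19005 and 19099 TPM in control, against 18274, 17931 and 18141 TPM in knockdown, again without overlap. Its log2 fold change was -0.07 (SE 0.0155, adjusted p = 0.0881), a small difference with the smallest SE of the 15 in this fit. The limma adjusted p was 0.534 after libraries were rescaled by a trimmed mean of ratios, and 0.587 without the trend option. Over all settings it ran from 0.0578 to 0.740. MT-CYB, MT-ND6 and MT-CO1 were the 3 of 15 genes whose groups did not overlap, 2 higher and 1 lower, where 22.3% of all tested genes did not overlap. Among the 234 genes of at least 500 TPM that share was 41.5%.

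MT-ATP8 reached 41587, 42935 and 40984 TPM in control, against 42400, 45774 and 48295 TPM in knockdown. Knockdown replicate 1 fell within the control range, and knockdown replicate 3 was the highest. The log2 fold change was 0.12 (SE 0.0447, adjusted p = 0.257). MT-ATP6, which sits on the same mRNA, was at 11767, 12035 and 12049 TPM in control, and its knockdown libraries lay at 11713, 11792 and 12607 TPM. Its log2 fold change was 0.01 (SE 0.0303, adjusted p = 0.916). For the other oxidase subunits the log2 fold changes were -0.04 for MT-CO2 and 0.02 for MT-CO3.

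The remaining complex I genes had log2 fold changes between -0.06 for MT-ND4L and 0.03 for MT-ND1. MT-ND5, the largest mitochondrially encoded subunit, was the nearest to 0, at 0.0013 (SE 0.0225). MT-ND4L varied most, at 16721, 19104 and 15234 TPM in knockdown against 17378, 18348 and 17390 TPM in control. Knockdown replicate 2 was the highest and replicate 3 the lowest of all 6, so that the control range lay inside the knockdown range. MT-RNR1 was at 808, 903 and 793 TPM in control, with 829, 820 and 758 TPM in knockdown (log2 fold change -0.06, SE 0.0577). MT-RNR2 was at 1653, 1681 and 1607 TPM in control, with 1706, 1912 and 1675 TPM in knockdown (log2 fold change 0.10, SE 0.0508, adjusted p = 0.416). Knockdown replicate 2 was the highest of the 6, and without it the log2 fold change of MT-RNR2 was 0.0377.

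**Figure D3:**
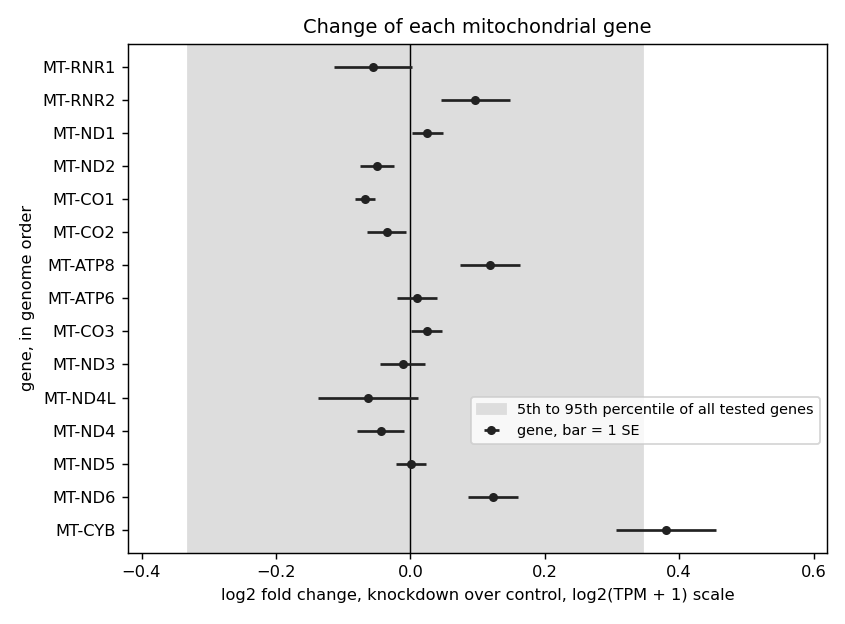
Log2 fold change of knockdown over control (x axis, log2(TPM + 1) scale) for the 15 tested mitochondrial genes in genome order (y axis), with bars of 1 SE and a grey band from the 5th to the 95th percentile of all 14135 tested genes. MT-CYB at 0.38 lies outside the band, which ends at 0.35, and the other 14 lie inside it.

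The spread between libraries was larger in knockdown than in control for 14 of the 15 genes, with MT-RNR1 the exception. The same count over all tested genes was not made, so this is not shown to be particular to these genes. Scaling factors from a trimmed mean of ratios to a reference library were 1.01, 0.986 and 1.01 in control. In knockdown they were 1.03, 1.01 and 0.955. A shift of a whole library moves all 15 genes together, and its part in the count was not tested. As a percentage of the mean, the SD ran from 0.675 to 7.12 in control and from 0.954 to 11.5 in knockdown. Knockdown replicate 3 held the highest value of all 6 libraries for 8 of the 15 genes, among them MT-ATP8, MT-ND6 and MT-CYB, and the lowest for 2, MT-ND4L and MT-RNR1. Knockdown replicate 1 held the lowest value for 4.

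The make-up of the mitochondrial pool was also read apart from nuclear RNA, as the share of each gene in the summed TPM of the 37 genes. These shares add up to a whole, so a higher share of an abundant gene lowers the others by construction. For 6 of the 15 genes the groups did not overlap, 3 higher and 3 lower, each with the smallest exact permutation p of 0.1 and an adjusted p of 0.25 over the 15. In the comparison of levels the groups did not overlap for 41.5% of the 234 genes of at least 500 TPM, and no such share exists for pool shares. MT-ATP8 held 24.1% ± 0.358 of the pool in control and 25.8% ± 1.03 in knockdown. MT-ND6 held 2.60% ± 0.0506 and 2.79% ± 0.0714, and MT-CYB 0.489% ± 0.0254 and 0.630% ± 0.0477. MT-CO1 held 10.9% ± 0.121 and 10.3% ± 0.326. MT-ND2 and MT-ND4, complex I subunits of the membrane arm, held 4.797% ± 0.0218 and 5.50% ± 0.0312 in control and 4.58% ± 0.0723 and 5.27% ± 0.166 in knockdown. Weighted by gene length, again 6 genes did not overlap, but 4 were higher and 2 lower. MT-ND4 then overlapped (exact permutation p = 0.4), and MT-ND1, another membrane-arm subunit, did not, at 4.08% ± 0.0378 of the weighted pool in control and 4.18% ± 0.0250 in knockdown (exact permutation p = 0.1).

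**Figure D4:**
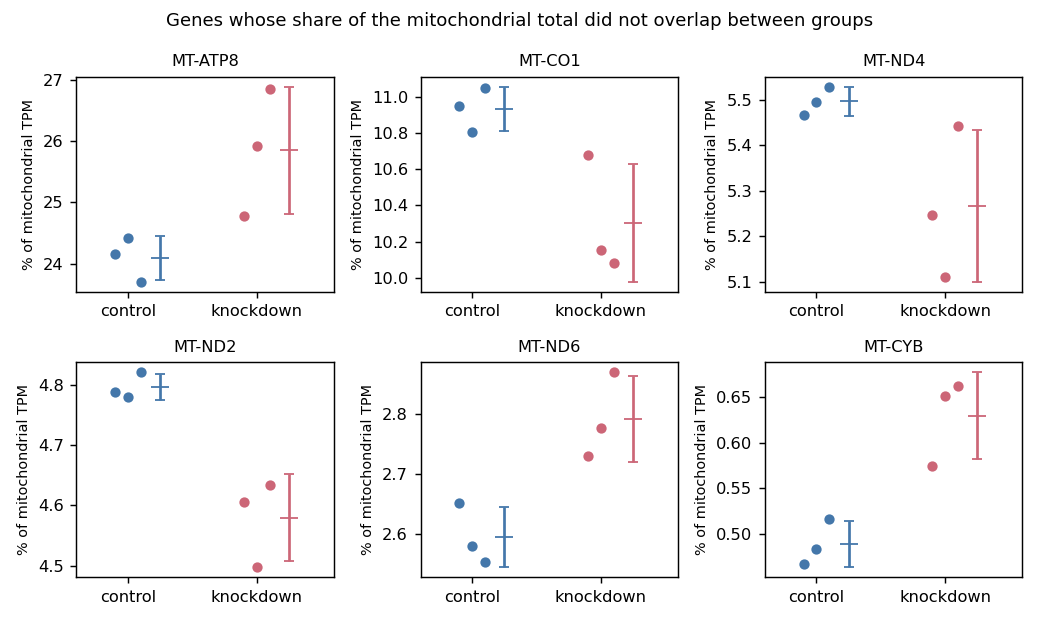
Share of the summed mitochondrial TPM (y axis, percent, axes not starting at 0) for the 6 genes whose groups did not overlap, with 1 point per library and a bar at the mean ± SD (n = 3) beside each group. MT-ATP8, MT-ND6 and MT-CYB lie higher in knockdown, and MT-CO1, MT-ND4 and MT-ND2 lower.

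Pairs of mitochondrial genes were set against each other within each library. MT-ATP8 and MT-ATP6 share 46 bases in different reading frames and MT-ND4L and MT-ND4 share 7, and no tRNA lies between them. The junctions are shown with the shared bases in capitals, at chrM:8513-8572 and chrM:8527-8586 for the first pair and chrM:10737-10766 and chrM:10760-10789 for the second, all on the plus strand.
MT-ATP8 last 60 bases: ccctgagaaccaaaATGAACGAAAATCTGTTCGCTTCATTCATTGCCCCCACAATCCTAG
MT-ATP6 first 60 bases: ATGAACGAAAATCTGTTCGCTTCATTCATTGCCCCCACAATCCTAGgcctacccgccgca
MT-ND4L last 30 bases: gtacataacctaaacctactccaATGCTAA
MT-ND4 first 30 bases: ATGCTAAaactaatcgtcccaacaattata

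The level of MT-ATP8 was 3.53, 3.57 and 3.40 times that of MT-ATP6 in control and 3.62, 3.88 and 3.83 times in knockdown. The ratio was higher in every knockdown library, by 0.11 on the log2 scale (exact permutation p = 0.1, adjusted p = 0.2 over 6 ratios). MT-ND4L was 1.85, 1.90 and 1.82 times MT-ND4 in control and 1.86, 2.12 and 1.56 times in knockdown, so that here the knockdown libraries lay on both sides of control (exact permutation p = 0.9). Each pair is carried by a shared mRNA, for which equal levels per length would give a ratio of 1, and the part of the short lengths in these ratios was not tested.

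The remaining ratios joined genes that share no mRNA. MT-CYB, which shares the heavy-strand precursor with MT-ND5, was 0.108, 0.113 and 0.117 times MT-ND5 in control and 0.127, 0.155 and 0.160 times in knockdown. All knockdown values were higher, by 0.38 on the log2 scale (exact permutation p = 0.1, adjusted p = 0.2). The log2 fold change of MT-ND5 was 0.0013, so this ratio repeats the change of MT-CYB and is no separate result. MT-RNR2 was 2.05, 1.86 and 2.02 times MT-RNR1 in control and 2.06, 2.33 and 2.21 times in knockdown (0.15 on the log2 scale, exact permutation p = 0.1, adjusted p = 0.2). Control replicate 1 and knockdown replicate 1 nearly met in that ratio. MT-ND6, which lies on the opposite strand and shares no precursor with MT-ND5, was 0.598 times MT-ND5 in control and 0.651 times in knockdown as geometric means, with overlapping groups (exact permutation p = 0.2).

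All 22 mitochondrial tRNA genes, which decode every codon used by the 13 mRNAs, were listed at 0 TPM in all 6 libraries. They are 59 bases (MT-TS2, a serine tRNA) to 75 bases (MT-TL1, a leucine tRNA) long. The table held 1554 genes under 80 bases, and 2 of them had a value above 0 in any library, HLA-Z with 75 bases and AC004556.1 with 71 bases at 3471 to 3734 TPM. These were named after their values were seen. Nearly all genes of this length were thus listed at 0, and no change in tRNA could be measured.

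Mitochondrial DNA has many partial copies in the nuclear chromosomes, and reads that match both can be split between them. The table held 407 such nuclear copies of mRNA and rRNA genes by their symbols, 70 with a value above 0 and 7 with a mean of at least 1 TPM. The highest was MTATP6P1, a pseudogene of MT-ATP6 on chromosome 1 (633696 to 634376, plus strand), which differs from MT-ATP6 at 10 of 681 bases (98.5% identity). The first difference, counted from the first base of MT-ATP6, is G19A, in capitals in the pair of windows at chrM:8531-8560 and chr1:633700-633729, shown because so few bases set the copies apart.
MT-ATP6 bases 5 to 34: acgaaaatctgttcGcttcattcattgccc
MTATP6P1 bases 5 to 34: acgaaaatctgttcActtcattcattgccc

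MTATP6P1 was at 3639, 3615 and 3543 TPM in control, with 3267, 3950 and 4094 TPM in knockdown (log2 fold change 0.06, SE 0.0776, adjusted p = 0.758). It took 23.1% ± 0.452 of the summed level of MT-ATP6 and MTATP6P1 in control and 23.8% ± 1.75 in knockdown. Summed with its copy, MT-ATP6 was at 15549 ± 128 and 15808 ± 862 TPM (exact permutation p = 0.7), and MT-ATP8 was 2.69 ± 0.0579 times that sum in control and 2.88 ± 0.0409 times in knockdown, without overlap (exact permutation p = 0.1). This sum was added after the data were seen. The level of MT-ATP6 is uncertain by the part of its reads given to the copy.

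**Figure D5:**
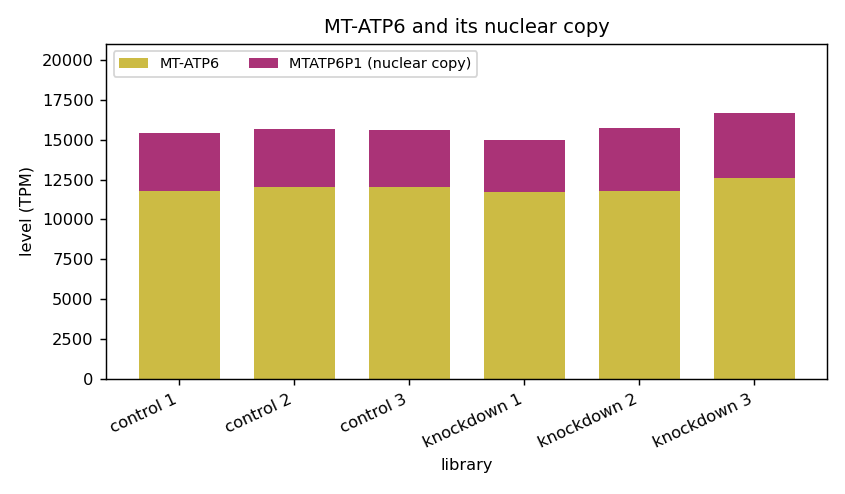
Level in TPM (y axis, from 0) of MT-ATP6 and, stacked on it, of its nuclear copy MTATP6P1 in the 6 libraries (x axis). The copy holds between 21.8% and 25.1% of each bar.

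The next copies were far lower. MTCO1P12, a copy of MT-CO1 on chromosome 1 with 98.7% identity, had 139 ± 0.544 TPM in control against 137 ± 8.52 TPM in knockdown, and MT-CO1 was 134 times as high over all libraries. MTND2P28, a copy of MT-ND2 with 98.4% identity, was at 8.33 ± 0.748 and 6.17 ± 0.265 TPM without overlap, and did not pass (-0.38 on the log2 scale, adjusted p = 0.111). MTND6P3 and MTRNR2L1 resemble MT-ND6 and MT-RNR2 less closely, with 89.1% and 88.5% identity over the aligned bases. They were at 33.0 ± 3.96 and 28.9 ± 3.996 TPM, and at 9.96 ± 0.777 and 9.34 ± 1.65 TPM. No copy of MT-CYB was among the 5 highest.

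Nuclear genes that make and handle mitochondrial RNA gave 0 calls as well. Over all 14135 tested genes 1.74% passed and 15.6% had an unadjusted p under 0.05, so 0 calls in lists this short is near that share. Of 18 tested genes of mitochondrial DNA transcription and maintenance 0 passed, with a median log2 fold change of -0.0053 and 1 at an unadjusted p under 0.05. The polymerase POLRMT had 58.8 ± 8.73 TPM in control against 54.3 ± 2.97 TPM in knockdown, TFAM, which packages the DNA and starts transcription, at 30.2 ± 1.87 and 27.8 ± 3.23 TPM, and TFB2M, which opens the promoter, at 18.7 ± 1.21 and 19.1 ± 0.678 TPM. The elongation factor TEFM was at 14.01 ± 2.60 and 15.1 ± 1.78 TPM, and MTERF1, a termination factor, did not reach the mean of 1 TPM required for testing. The control and knockdown ranges overlapped in all 4 that were tested (adjusted p from 0.590 to 0.897).

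Among 14 genes of mitochondrial RNA cleavage and decay 0 passed (median log2 fold change 0.0075, 1 at an unadjusted p under 0.05). LRPPRC and SLIRP, partners in a complex that stabilizes mitochondrial mRNAs, were at 78.5 ± 3.07 and 77.6 ± 8.10 TPM, and at 282 ± 16.4 and 307 ± 19.9 TPM. ELAC2, which cuts the 3′ side of tRNAs, was at 70.7 ± 1.85 and 76.2 ± 3.81 TPM, higher in every knockdown library, and did not pass (0.11 on the log2 scale, adjusted p = 0.389). TRMT10C, a subunit of the enzyme that cuts the 5′ side, was at 32.2 ± 2.02 and 33.1 ± 0.570 TPM, and the poly(A) polymerase MTPAP at 9.73 ± 1.49 and 8.90 ± 0.934 TPM. The other lists held 6 FASTK family genes, 28 genes listed for tRNA and rRNA modification, 22 for tRNA charging and 12 translation factors. In each 0 passed, with 1, 2, 2 and 1 at an unadjusted p under 0.05. The median log2 fold changes of these lists were 0.02, 0.0083, 0.03 and 0.05. Beside aminoacyl-tRNA synthetases, the charging list holds the amidotransferase subunits QRSL1, GATB and GATC. The modification list also holds METTL5, which modifies cytosolic rRNA, and the helicases DDX28 and DHX30. The shares over all tested genes were 1.74% passing and 15.6% at an unadjusted p under 0.05.

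The lists of nuclear partners of the mitochondrial subunits had lower median levels than any of the 13 mRNAs, and their median log2 fold changes lay near 0. Single partners could lie higher, as ATP5MF did in control, at 881 TPM against 849 TPM for MT-CYB. The 37 nuclear complex I subunits had a median level of 125.5 TPM over all libraries and a median log2 fold change of 0.02, with 0 past the threshold and 9 at an unadjusted p under 0.05. For the 9 subunits of complex III and the 12 of complex IV the median log2 fold changes were -0.03 and 0.02, with 0 past the threshold and 1 and 0 at an unadjusted p under 0.05. Of 18 complex V subunits, ATP5MF, a subunit of the membrane sector, fell from 881 ± 31.8 TPM in control to 659 ± 55.1 TPM (-0.42 on the log2 scale, SE 0.0601, adjusted p = 0.0228). That call was lost in 9 of 16 alternatives, among them the omission of any control library or of knockdown replicate 1 or 2, with adjusted p up to 0.107. The other 17 did not pass, the list median was 0.01, and 5 of the 18 had an unadjusted p under 0.05. For all tested genes these shares were 1.74% passing and 15.6% at an unadjusted p under 0.05.

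Between 13927 and 14257 genes reached 1 TPM per library, and correlations between libraries on the log2 scale lay between 0.973 and 0.979. All 6 epithelial markers were detected. Their summed level was 9435 to 9701 TPM in control and 11207 to 11684 TPM in knockdown, and KRT8, KRT18, EPCAM and KRT19 rose, 4 of the 6, where 1.74% of all tested genes were called. Among the 234 genes of at least 500 TPM, the range of KRT8, KRT18 and KRT19, 9.83% were called. KRT7 and CDH1 did not pass. KRT7 was at 1.31 to 1.52 TPM in control and 2.42 to 3.13 TPM in knockdown, without overlap, and CDH1 at 131 to 144 TPM in control and 111 to 132 TPM in knockdown, with overlap. The part of that shift in the mitochondrial shares was not tested. Of the leukocyte, fibroblast and endothelial markers, PTPRC, CD3E, DCN, LUM, COL1A2, KDR and CDH5 were listed at 0 in all libraries. The sums of the 4, 6 and 4 markers were at most 7.13, 4.45 and 0.18 TPM in any library.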

How the data were processed

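The build was GRCh38 and the tools were fastp, HISAT, RSEM and edgeR, per the submitters' processing notes. The sources used here do not state versions, annotation release or the treatment of multiply mapped reads. The authors deposited TPM values in a table with 60831 gene rows, each library summing to between 999988 and 999992; 1 line had been emptied. Another 2 columns, the authors' means per group, were used only for a check. Depth is unknown, so no counting error can be given.

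Control columns were matched by NC and their number. The other 3 carry S, which the labels do not define, and were taken as knockdown by elimination and number. Values were transformed to log2(TPM + 1), genes with a mean of at least 1 TPM were kept (14135), and the groups were compared in limma 3.58.1 (R 4.3.3) with its trend option, two-sided, with no covariate and Benjamini-Hochberg adjustment over all tested genes at 0.05. The test was first run on simulated data. All 37 mitochondrial genes are named, whatever their p, with fixed nuclear genes, up to 3 called genes per list and the 5 highest nuclear copies. Shares and ratios were compared by exact two-sided permutation over 20 splits (scipy 1.17.1). Coordinates and sequences came from GENCODE release 29, and copies were aligned with Biopython 1.88. Fold changes on this scale understate low genes. Errors are SD over n = 3 libraries unless SE is named. The members and lists were chosen with earlier results of these data known. A marker and a sequence are not reported here.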

Additional observations from a re-analysis of the deposited data

How the results depend on the processing

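The count of genes called over the whole table moved from 246 to 160 with a filter at 0.1 TPM, to 61 with no filter and to 41 with the replicate block. It was 0 in limma without its trend option, where 2040 genes had an unadjusted p under 0.05. CLIC1 itself had a limma adjusted p of 0.073 in that setting, and it passed in 15 of 16 alternatives. The count over the whole table ran from 34 to 242 when 1 library was left out. For mitochondrial genes the count moved from 0 to 1, always MT-CYB, with a filter at 5 TPM, with the replicate block and without knockdown replicate 1 (0 to 1 over the omissions). The main fit did not pair libraries by replicate number. Deviations of same-numbered libraries from their group means correlated at 0.04, -0.05 and -0.01, and not every library correlated best with its own number. With 3 libraries a group, this check cannot tell whether same-numbered libraries were prepared together. The difference in the mRNA share was 0.21 percentage points and turned to -0.0056 with length weighting, an alternative chosen after the data were seen. It ran from 0.0060 to 0.45 when 1 library was left out, and that of all 37 genes from 0.021 to 0.46. Leaving out 1 library also turned the sign of small log2 fold changes: MT-ATP6 (-0.024 to 0.029), MT-ND3 (-0.035 to 0.027), MT-ND4L (-0.15 to 0.014), MT-ND5 (-0.017 to 0.011), MT-RNR1 (-0.091 to 0.0018), MTATP6P1 (-0.0026 to 0.16), MTCO1P12 (-0.070 to 0.019), LRPPRC (-0.068 to 0.068) and TFB2M (-0.024 to 0.060). The same held for differences in pool share, in percentage points, of MT-ND1 (-0.012 to 0.044), MT-ATP6 (-0.12 to 0.044), MT-CO3 (-0.069 to 0.15), MT-ND4L (-1.07 to 0.0998) and MT-ND5 (-0.16 to 0.028). Length weighting, also chosen after the data were seen, turned the pool share differences of MT-ATP6 (-0.039 to 0.084) and MT-ND5 (-0.048 to 0.079). Leaving out 1 library turned the log2 ratios of MT-ND4L to MT-ND4 (-0.12 to 0.10) and of all mRNAs to all rRNAs (-0.085 to 0.014). The cause was not tested. With 3 libraries a group, 0 share or ratio could reach an exact p below 0.1.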
